A study of Mus musculus with 6 samples.

Results

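The acute phase genes of abdominal adipose tissue were followed in mice on a high-fat diet after a duodenal-jejunal bypass (DJB), an operation that routes food past the duodenum and upper jejunum. The members were 8 genes, namely Hp, Orm1, Orm2, Lcn2, Saa1, Saa2, Saa3 and Itih4, of 21354 gene symbols on the array. Every non-control probe whose gene name in the scanner files was one of them was taken, which gave 9 probes of 150305, with a pair for Saa1 and 1 for each other gene. These are called the named probes. The rule itself uses no measured value, but the genes were chosen with earlier results of these data known.

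RNA was measured on 6 arrays, 3 from C57BL/6 mice that had the bypass (DJB) and 3 from C57BL/6 mice that had a sham operation (Sham). From an age of 6 weeks all mice ate a high-fat diet, and after 12 weeks on it they were allotted at random to an operation. In the DJB group the biliopancreatic limb measured 5 cm and the Roux limb 4 cm, whereas in the Sham group the gut was cut at the same places and sewn together again. The labels give neither the fat depot, the time after surgery, the age at sampling nor whether each array came from its own animal, so the spread behind each p-value is that between these samples and may be technical.

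Acute phase proteins are plasma proteins whose synthesis changes during inflammation. The liver is their best known source, and interleukin 6, acting through STAT3, and interleukin 1, acting through NF-kappa-B and C/EBP factors, are their best known inducers. Adipose tissue also makes several of them: haptoglobin (Hp), lipocalin 2 (Lcn2) and serum amyloid A3 (Saa3) are known products of mouse adipocytes or of macrophages within fat, and obesity is known to raise them there.

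The probes themselves define what was read. The sequences of 8 of the 9 are shown because they carry the measurements that follow. Each is 60 bases long, is written 5′ to 3′ in lower case and has its mm9 interval from the deposited files.
Hp, A_51_P235945, chr8:112099172-112099231, minus strand: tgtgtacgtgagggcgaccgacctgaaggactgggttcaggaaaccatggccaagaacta
Orm1, A_51_P336325, chr4:63006483-63007090, plus strand: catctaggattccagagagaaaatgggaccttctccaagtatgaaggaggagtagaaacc
Orm2, A_51_P141546, chr4:63024979-63025038, plus strand: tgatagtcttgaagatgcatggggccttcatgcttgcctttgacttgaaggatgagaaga
Saa1, A_51_P361650, chr7:53996167-53996639, minus strand: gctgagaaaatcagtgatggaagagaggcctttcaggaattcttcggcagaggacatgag
Saa1, A_52_P318673, chr7:53996070-53996129, minus strand: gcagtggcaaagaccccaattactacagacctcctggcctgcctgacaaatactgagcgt
Saa3, A_51_P337308, chr7:53968031-53968090, minus strand: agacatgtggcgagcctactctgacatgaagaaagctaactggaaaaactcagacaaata
Itih4, A_51_P172292, chr14:31709897-31709956, plus strand: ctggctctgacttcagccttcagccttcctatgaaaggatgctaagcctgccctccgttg
Lcn2, A_51_P510156, chr2:32241037-32241281, minus strand: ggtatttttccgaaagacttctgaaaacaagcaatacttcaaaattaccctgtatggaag
The intervals of the Orm1 (608 bases), Lcn2 (245) and first Saa1 probe (473) are longer than the probe, so these probes cross an exon junction, and each of the others shown lies within a single exon. The Saa2 probe, A_51_P166886, at chr7:54009535-54009594 on the plus strand, lies within a single exon too.

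The array also holds custom probes that carry a RefSeq accession in place of a gene name, and 1 of these has the accession of each member. These 8 custom probes were not among the 9 and read the same genes a further time. The Lcn2 pair overlaps by 22 bases, marked in capitals here, so its 2 readings are not of separate sequence.
Lcn2, named probe: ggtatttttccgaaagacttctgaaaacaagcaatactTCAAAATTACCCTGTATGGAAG
Lcn2, custom probe: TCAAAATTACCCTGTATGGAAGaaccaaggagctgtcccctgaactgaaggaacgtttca
Among all 231 pairs of the 22 probes of the members and of their paralogs Orm3 and Saa4, 5 pairs shared a run of at least 20 bases. The custom probes of Orm1 and Orm2 shared 49 bases in a row, with 1 mismatch in their 57-base overlap. Those of Saa1 and Saa2 shared 39 bases, with 3 mismatches in 60, and the custom Orm3 probe shared 26 with those of both Orm1 and Orm2. The longest run shared by any other pair, which takes in all 36 pairs of named probes, was 10 bases. Close paralogs can still bind the same probe, and the files list the Saa1 transcript beside that of Saa3 for the Saa3 probe. Values of Orm1, Orm2 and Orm3, and of Saa1, Saa2 and Saa3, are therefore uncertain as to which paralog they read.

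Signals are given as the log2 of the processed intensity minus the array's 75th percentile of it, called normalized signal here, and differences are DJB minus Sham on that log2 scale. The signal of a probe depends on its sequence as well as on its RNA, so brighter or dimmer among probes describes signal and not the amount of RNA. The 75th percentile lay between 132.0 and 183.7 intensity units, 62.6% to 68.8% of probes were well above background, no spot was saturated, and 3 arrays per group limit the precision. Correlations between arrays were 0.973 to 0.989 within and 0.944 to 0.980 between groups, and Sham-3 correlated best with a DJB array, DJB-3 (0.980). There were 2 slides, each with arrays of both groups. Differences were tested with limma's moderated test over all 99431 tested probes with Benjamini-Hochberg adjustment, and a probe was called at an adjusted p under 0.05. An exact permutation test with 3 against 3 arrays cannot go below 0.10.

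The main change among the acute phase genes was in the orosomucoids: Orm1 and Orm2 fell on each of their probes, and no other member was called. Of the 9 named probes, 2 were called lower and 0 higher, where 3.15% of all tested probes were called lower and 1.84% higher. An unadjusted p under 0.05 was reached by 5 of the 9 (28.2% of all tested probes), and on 5 of the 9 every DJB array lay below every Sham array (14.2% of all). All 9 were tested, and 8 were well above background on all 6 arrays. In 8 of the 9 the difference was negative, against 41% of all tested probes, and 5 were at least 2-fold lower, against 6.25%. The median difference of the 9 probes was -1.19 on the log2 scale, beside 0.080 for all tested probes. In a bulk sample, fewer cells of a type and less RNA per cell cannot be told apart.

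**Figure D1:**
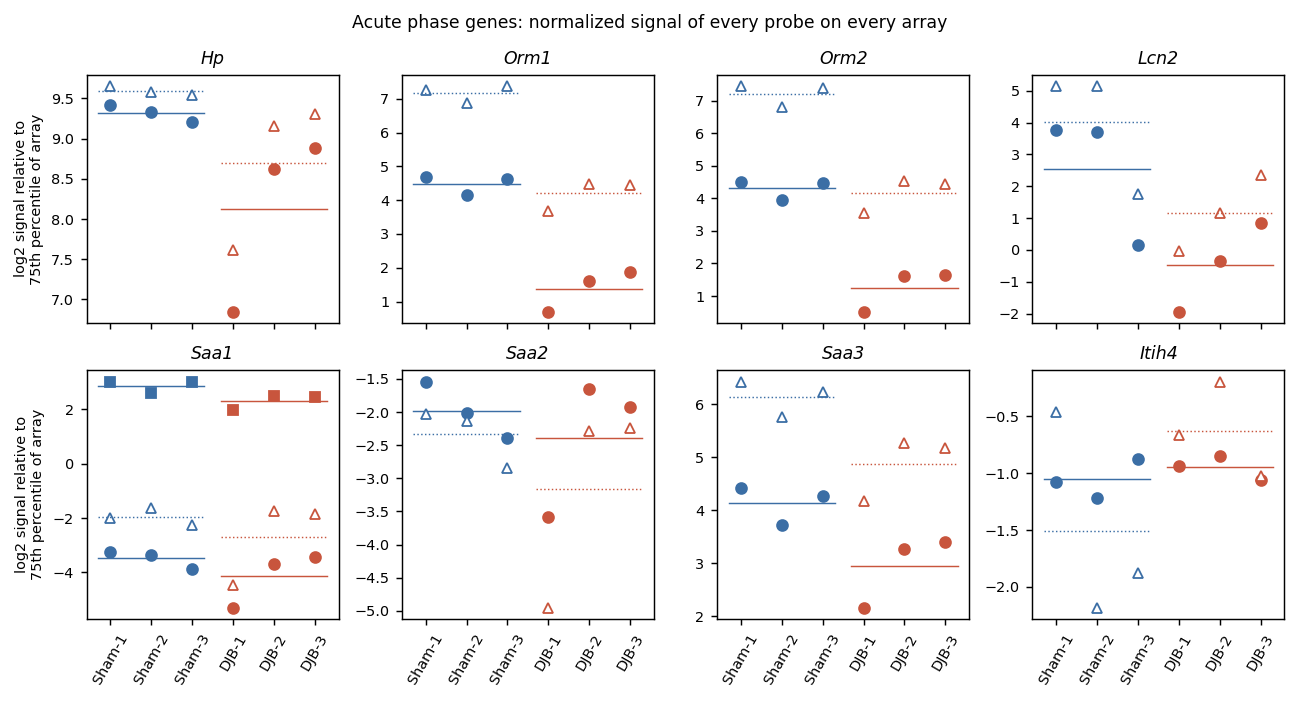
Normalized signal (log2 relative to the array's 75th percentile) of each probe of the 8 genes on each array, with Sham arrays in blue and DJB arrays in red. Filled circles and squares are the named probes, with the group mean as a solid line, and open triangles are the custom probes, with the mean as a dotted line. The Orm1 and Orm2 groups lie apart on every probe, the Lcn2 groups overlap because of Sham-3, and DJB-1 is the lowest array for every gene but Itih4. Each panel has its own scale.

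Orm1 and Orm2 encode orosomucoid, also called alpha-1-acid glycoprotein, a heavily glycosylated plasma protein of the lipocalin fold that binds drugs and lipids. The mouse has 3 such genes side by side on chromosome 4. The Orm1 probe had a normalized signal of 4.68, 4.14 and 4.64 in Sham and of 0.69, 1.59 and 1.87 in DJB. The groups did not overlap, and the lowest Sham array stood over 2 log2 units above the highest DJB array. Orm1 fell by 3.1004 on the log2 scale (SE 0.33, limma adjusted p = 0.0183, n = 3 arrays per group), which is 8.58-fold, with a 95% confidence interval from 4.93- to 14.9-fold. The Orm2 probe gave 4.52, 3.96 and 4.47 on Sham and 0.51, 1.61 and 1.66 on DJB arrays. Orm2 fell by 3.06 (SE 0.34, adjusted p = 0.0206), or 8.32-fold (interval 4.67 to 14.8). For both genes Sham-2 was the lowest of its group, DJB-1 was the lowest of all, and the ranks of these 2 differences were 505 and 532 from the lowest among the 99431 tested probes.

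Both genes also fell on their custom probes. Orm1 read 7.27, 6.87 and 7.39 on Sham and 3.68, 4.49 and 4.46 on DJB arrays, so it fell by 2.97 (SE 0.26, limma adjusted p = 0.0125). Orm2 read 7.45, 6.81 and 7.38 on Sham and 3.56, 4.54 and 4.44 on DJB arrays, so it fell by 3.04 (SE 0.31, adjusted p = 0.0174). These 2 probes share 49 of their bases in a row, as given above, whereas the named probes of Orm1 and Orm2 do not share a run of over 10. Of the 8 custom probes of the members these were the 2 called, both lower.

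Orm3, the remaining orosomucoid gene and not a member, moved the same way. Its named probe read 0.078, -1.26 and 0.0090 on Sham and -2.28, -2.60 and -2.63 on DJB arrays (difference -2.11, SE 0.37, limma adjusted p = 0.0398). Its custom probe read 6.52, 6.04 and 6.39 on Sham and 2.69, 3.61 and 3.79 on DJB arrays (-2.96, SE 0.31, adjusted p = 0.0179). All 6 orosomucoid probes were called lower, and on all of them the groups lay apart. The named Orm3 probe kept its call in 1 of the 6 fits with an array left out, that without Sham-2 (adjusted p = 0.0235), and lost it with slide as a block (0.0504). With normexp background correction its difference was -1.01 (adjusted p = 0.0333). The custom Orm3 probe lost its call without Sham-1 (0.0933), Sham-2 (0.0577) or DJB-2 (0.0683).

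The orosomucoid differences kept their sign on both slides and with each array left out, while their calls did not all hold. On slide 1 the difference was -3.51 for Orm1 and -3.43 for Orm2 between 2 arrays of each group, and on slide 2, with 1 array of each, it was -2.27 and -2.30. With slide as a block Orm1 had an adjusted p of 0.0472 in limma and the Orm2 named probe one of 0.05003, just past the threshold, while its custom probe had 0.0454. Without Sham-1 the differences of the named probes were -3.01 for Orm1 and -2.96 for Orm2 and neither was called (adjusted p = 0.0952 and 0.101). Neither was called without Sham-2 (-3.27 and -3.23, adjusted p = 0.0551 and 0.0616) or without DJB-2 (-3.21 and -3.23, adjusted p = 0.0738 and 0.0714). Both stayed called without Sham-3, DJB-1 or DJB-3. Over the 6 fits the Orm1 difference stayed between -3.34 and -2.75 and that of Orm2 between -3.26 and -2.68. The custom probes lost both calls without Sham-1 (adjusted p = 0.0754 for Orm1 and 0.0924 for Orm2) and without DJB-2 (0.0513 and 0.0588). Both stayed called without Sham-2.

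**Figure D2:**
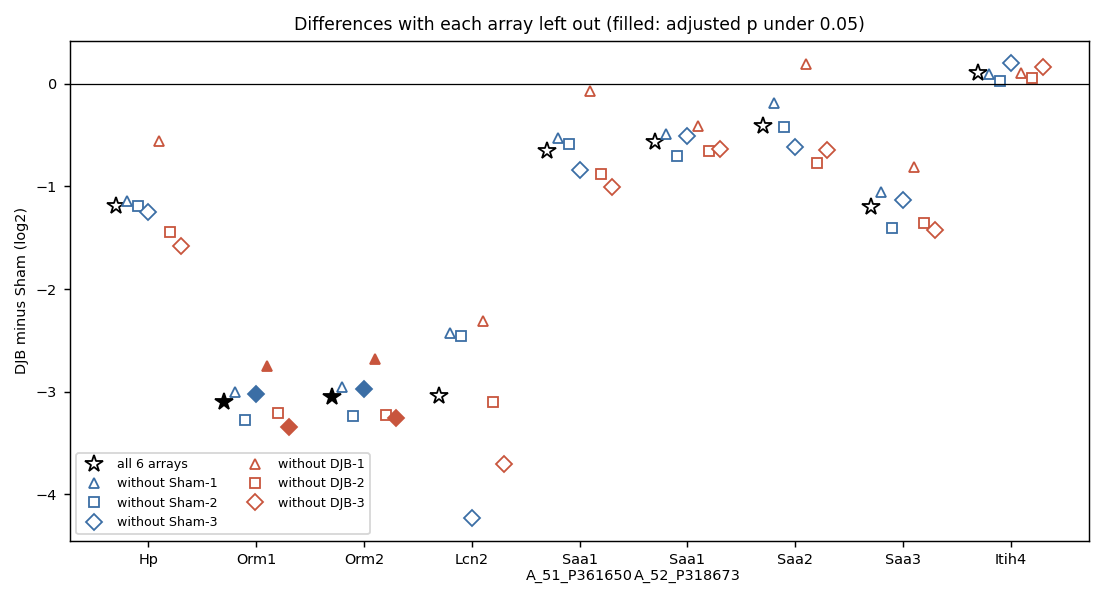
Difference DJB minus Sham (log2) of each named probe with all 6 arrays (star) and with each array left out in turn (other symbols). Filled symbols have a limma adjusted p under 0.05. Orm1 and Orm2 stay between -3.34 and -2.68 throughout, Hp moves from -1.19 to -0.56 without DJB-1, and Lcn2 reaches -4.23 without Sham-3.

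Lcn2 had a difference as large as those of the orosomucoids but was not called, and its values varied widely within the Sham group. Lipocalin 2 binds bacterial siderophores and so withholds iron, and it is made by neutrophils, epithelia and adipocytes. The Lcn2 probe read 3.78, 3.71 and 0.17 in Sham and -1.95, -0.35 and 0.84 in DJB. Sham-1 and Sham-2 were high, and Sham-3 lay below DJB-3. The difference was -3.04 (SE 1.15, 95% interval -5.84 to -0.24, limma adjusted p = 0.153). The custom probe, which shares 22 bases with it, read 5.15, 5.15 and 1.77 on Sham and -0.03, 1.15 and 2.35 on DJB arrays (-2.86, SE 1.06, adjusted p = 0.146). The 6 arrays had the same order on both probes. Without Sham-3 the difference was -4.23 on the named probe (adjusted p = 0.0565) and -3.99 on the custom probe (adjusted p = 0.0468), so this 1 array decided the call of the custom probe.

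The summed signal of markers of epididymis and other epithelium followed an order of arrays like that of Lcn2. This sum, of 8 tested genes of 10, was taken in multiples of the array's 75th percentile. It came to 40.4, 25.2 and 8.77 for Sham and to 2.78, 3.08 and 8.31 for DJB. Of the 8 genes, 6 had a negative difference and 2 a positive one, Lcn9 (0.10) and Defb20 (0.22). Sham-1 and Sham-2 were high here too, and Sham-3 stood close to DJB-3. None of the 8 was called, 1 passed 0.05 before adjustment with limma, and 5 were well above background on every array. Lcn5 and Lcn8, lipocalins of the epididymis, were too dim to be tested. Krt7, an epithelial keratin and the brightest of the list, weighs heavily in the sum, which is thus no measure of epididymis alone. It read 4.00, 3.45 and 3.04 on Sham and 1.07, 0.68 and 2.75 on DJB arrays (-1.997, SE 0.56, limma adjusted p = 0.0880). The part of these tissues in the Lcn2 values was not tested.

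Hp encodes haptoglobin, which binds free haemoglobin in plasma, and it is among the acute phase genes that fat cells are known to express. Its probe read 9.42, 9.33 and 9.20 in Sham and 6.84, 8.63 and 8.89 in DJB. All DJB arrays were below all Sham arrays, DJB-1 by the most and DJB-3 by the least. The difference was -1.19 (SE 0.52, 95% interval -2.47 to 0.076, limma adjusted p = 0.197). The custom probe read 9.66, 9.58 and 9.54 on Sham and 7.62, 9.15 and 9.31 on DJB arrays (-0.90, SE 0.44, adjusted p = 0.239). Array DJB-1 set most of the size: without it the difference was -0.56 on the named probe (adjusted p = 0.113) and -0.36 on the custom probe (adjusted p = 0.170).

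The serum amyloid A proteins are apolipoproteins of high-density lipoprotein. Saa1 and Saa2 are mainly liver genes in the acute phase, whereas Saa3 is made mainly outside the liver in mice, by adipocytes and macrophages among others. No Saa gene was called. Saa3 read 4.43, 3.72 and 4.28 in Sham and 2.16, 3.27 and 3.40 in DJB. Every DJB array was below every Sham array, with DJB-1 the lowest, and the difference was -1.20 (SE 0.37, limma adjusted p = 0.105). The custom Saa3 probe read 6.43, 5.76 and 6.23 on Sham and 4.18, 5.27 and 5.18 on DJB arrays (-1.26, SE 0.34, adjusted p = 0.0785). With normexp background correction the custom probe was called, with an adjusted p of 0.0417.

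Saa1 had 2 named probes. The one of higher signal, A_52_P318673, read 3.03, 2.60 and 2.996 on Sham and 1.99, 2.48 and 2.46 on DJB arrays, with no overlap (-0.57, SE 0.19, limma adjusted p = 0.125). It was called with normexp background correction (adjusted p = 0.0460). The one of lower signal, A_51_P361650, read -3.23, -3.36 and -3.86 on Sham and -5.30, -3.68 and -3.43 on DJB arrays (-0.65, SE 0.50, adjusted p = 0.436). It was not well above background on DJB-1, and its groups overlapped. The custom Saa1 probe read -1.99, -1.63 and -2.26 on Sham and -4.47, -1.73 and -1.85 on DJB arrays (-0.72, SE 0.74, adjusted p = 0.558). On these last probes DJB-1 alone was low, and without it the differences were -0.068 and 0.17. The Saa1 probes thus did not read alike, and A_52_P318673, as the brightest, represents the gene in the lists.

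Saa2 showed the same picture of a single low array. Its probe read -1.54, -2.01 and -2.39 on Sham and -3.58, -1.66 and -1.92 on DJB arrays (-0.41, SE 0.53, limma adjusted p = 0.648). DJB-2 and DJB-3 lay among the Sham arrays, and without DJB-1 the difference was 0.19. The custom Saa2 probe read -2.03, -2.14 and -2.84 on Sham and -4.95, -2.29 and -2.24 on DJB arrays (-0.83, SE 0.75, adjusted p = 0.509), and was not well above background on DJB-1. Saa4, a serum amyloid A gene expressed constitutively by the liver and no member, differed by -0.38 (adjusted p = 0.637) and -0.28 (adjusted p = 0.279) on its 2 tested probes. A further Saa4 probe was well above background on only 2 arrays and was not tested.

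Itih4 encodes a heavy chain of the inter-alpha-trypsin inhibitor family, secreted mainly by the liver, and was the 1 member without a negative difference. Its probe read -1.08, -1.22 and -0.87 in Sham and -0.94, -0.85 and -1.06 in DJB. The groups overlapped, with a difference of 0.11 (SE 0.13, limma adjusted p = 0.636). The 95% interval of this difference, from -0.22 to 0.43, does not reach the size of the orosomucoid falls. The custom Itih4 probe was more scattered, with -0.46, -2.18 and -1.87 on Sham and -0.66, -0.19 and -1.02 on DJB arrays (0.88, SE 0.47, adjusted p = 0.275).

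**Figure D3:**
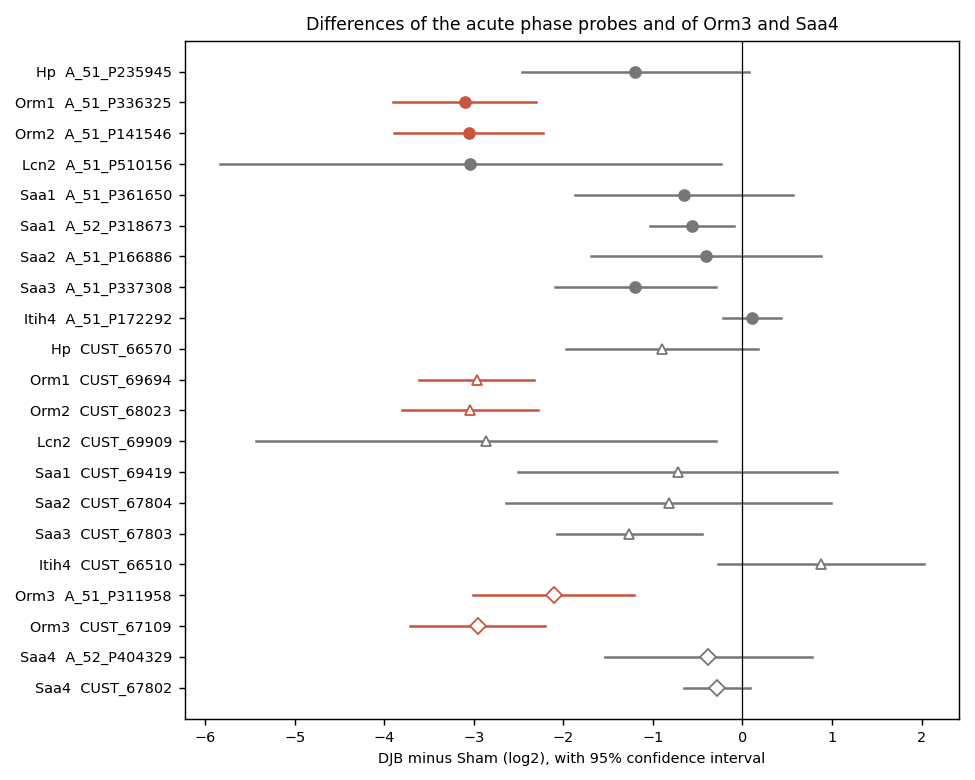
Difference DJB minus Sham (log2) with its 95% confidence interval from limma for each tested probe. Circles are the named probes, triangles the custom probes of the members and diamonds the probes of the paralogs Orm3 and Saa4, and red marks an adjusted p under 0.05. The 6 orosomucoid probes are the called ones, from -3.1004 to -2.11, the Lcn2 intervals are the widest and those of Itih4 include 0.

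Array DJB-1 was the lowest of the 6 for 8 of the 9 named probes and for 7 of the 8 custom probes, where 18.9% of all tested probes were lowest there. Sham-1 was the highest for 8 of the 9 named probes, against 14.8% of all tested probes. Relative to the Sham mean, DJB-1 stood at -2.47 for Hp and at -1.98 for Saa3, while DJB-3 stood at -0.43 and -0.74. For Orm1 the same values were -3.79 on DJB-1, -2.89 on DJB-2 and -2.62 on DJB-3, so all 3 DJB arrays were low. The mature adipocyte markers were also lowest on DJB-1: the summed signal of 12 genes was 2234 there, 3361 on DJB-2 and 3574 on DJB-3, and 4040 to 4649 on the Sham arrays. The summed signals of hepatocyte markers (23.5) and of epididymis and other epithelium markers (2.78) were lowest on DJB-1 too. That of mesothelial markers was lowest on DJB-2 (40.5) and that of neutrophil markers on Sham-1 (58.3), while that of macrophage markers was highest on DJB-1 (4911). The part of adipocyte or other cell content in the member values was not tested.

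By the Pearson correlation of normalized signal over the 6 arrays, the genes most like each member were drawn from 18326 other genes, each by its brightest tested probe. With 6 arrays and this many genes a coefficient near 1 is easily found, and the values describe these arrays only. For Orm1 the 3 most alike were Ccdc102a (r = 0.999), Vhl (0.999) and Orm2 (0.999), and for Orm2 they were AI429214, Cisd3 and Rnf11 (0.999 each). Orm1 and Orm2 were read by custom probes that share 49 bases. For Hp they were Mtag2, Bok and Swsap1 (0.997, 0.996 and 0.995), and for Lcn2 Pla2g2c, Pkdrej and Fam47e (0.996, 0.995 and 0.994). Isca1 led the lists of both Saa1 (0.995) and Saa3 (0.999), followed by Akt2 and Phkb for Saa1 (0.995 and 0.994) and by C030006K11Rik and Bckdhb for Saa3 (0.998 and 0.996). Saa2 was most like Prkg2, Arhgap42 and Mrps31 (0.988, 0.988 and 0.985), and Itih4 most like Asb16, Mymk and Camk1g (0.994, 0.991 and 0.991).

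Of 32 tested cytokines, receptors and transcription factors that induce the acute phase, 1 was called lower and 0 higher, where 6.09% of all 18333 genes were called lower and 1.41% higher, 7.5% in all. This share is no higher than that of all genes. Of the 32, 10 had an unadjusted p under 0.05 in limma, where 28.2% of all tested probes did. There were 20 positive and 12 negative differences, where 41% of all tested probes had a negative one. The groups lay apart for 3 lower genes, where 14.2% of all tested probes did so. The 28.2%, 41% and 14.2% are shares of probes, and the same shares over genes were not counted. Probes and genes can differ, since 3.15% of tested probes but 6.09% of genes were called lower. These shares are therefore only a rough measure for a list of genes. The groups also lay apart for 8 higher genes. No share over all probes or genes was counted in that direction, so whether 8 of 32 is more than is common here is not known. The median difference was 0.18, beside 0.0039 for all genes. The 1 called was Lif, a cytokine of the interleukin 6 family, which read -1.05, -0.79 and -0.53 on Sham and -2.05, -1.76 and -2.35 on DJB arrays (-1.26, SE 0.21, limma adjusted p = 0.0357). Lif lost its call without each array in turn (-1.41 to -1.11, adjusted p = 0.0517 to 0.112), and its difference was -0.59 with normexp background correction. Il6 (1.49, SE 1.02, adjusted p = 0.380) was highest on DJB-2. Il1b (1.47, SE 0.53, adjusted p = 0.141) was higher on every DJB array than on every Sham array, without being called.

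The same held for 2 transcription factors of the pathway. Stat3 read 5.31, 5.56 and 5.50 on Sham and 5.81, 6.21 and 6.23 on DJB arrays (0.63, SE 0.16, limma adjusted p = 0.0706). Cebpb, which encodes C/EBP-beta, read 5.71, 5.72 and 5.78 on Sham and 6.15, 6.67 and 6.55 on DJB arrays (0.72, SE 0.16, adjusted p = 0.0557). Both stood higher on all DJB arrays, and neither was called. Socs3, the feedback inhibitor of this signalling (0.90, adjusted p = 0.261), Cebpd (0.49, adjusted p = 0.215), Osmr (0.36, adjusted p = 0.196), Tnf (-0.16, adjusted p = 0.835) and Nfkbiz (-0.20, adjusted p = 0.714) overlapped between the groups.

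Among 34 tested genes of 36 for other positive acute phase proteins, 7 were called lower and 0 higher, with a median of -0.77, where 6.09% of all genes were called lower and 1.41% higher. Of the 7, 5 were the alpha-1-antitrypsin genes, protease inhibitors of plasma that in mice form a cluster of close paralogs whose probes cannot be assigned with certainty, so the count is not of 7 separate genes. Serpina1e read 1.71, 1.20 and 1.51 on Sham and -0.99, -0.89 and -1.24 on DJB arrays (-2.52, SE 0.17, limma adjusted p = 0.00693). The other 4, Serpina1a to Serpina1d, fell by 2.40 to 2.68. With normexp background correction the difference was -0.87 for Serpina1a, -2.002 for Serpina1c and -1.83 for Serpina1e, all still called, and by the mean of its probes Serpina1c was at -2.09 (adjusted p = 0.0144). Hpx, which encodes haemopexin, a haem-binding protein (-1.07, SE 0.13, adjusted p = 0.0225), and Serpina3k (-2.07, SE 0.42, adjusted p = 0.0492) also fell. Serpina3k was at -1.27 and not called by the mean of its probes (adjusted p = 0.0580).

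C3, the central complement component and a product of adipocytes, differed by -0.082 (adjusted p = 0.762), and its sign turned to 0.023 with median scaling. Cp, which encodes ceruloplasmin (-0.33, adjusted p = 0.507), Serpina3n (-0.49, adjusted p = 0.371) and Itih3 (-1.16, adjusted p = 0.264) overlapped between the groups. Of 12 negative acute phase proteins, those whose plasma level drops in inflammation, 11 were tested. Beside 6.09% of all genes called lower and 1.41% higher, 2 of the 11 were called lower and 0 higher, with a median of -0.073. They were Rbp4, the retinol carrier, which adipocytes also make (-2.80, SE 0.33, limma adjusted p = 0.0225), and Alb, albumin (-2.89, SE 0.38, adjusted p = 0.0262; -1.95 with normexp background correction). Called genes of the positive and of the negative acute phase proteins were all lower.

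Of 25 receptors and partners of the member proteins, 2 were called lower and 1 higher, with a median of 0.040. With 6.09% of all genes called lower and 1.41% higher, these shares are near the background. Slc22a17, a receptor described for lipocalin 2, read 5.03, 4.78 and 4.48 on Sham and 3.42, 3.43 and 3.39 on DJB arrays (-1.35, SE 0.16, limma adjusted p = 0.0225). Itih2, another heavy chain of the family of Itih4, fell by 1.29 (SE 0.25, adjusted p = 0.0470). Tlr4, a receptor for lipopolysaccharide, rose by 0.67 (SE 0.13, adjusted p = 0.0446). Cd163, the macrophage receptor for haptoglobin bound to haemoglobin (-0.56, adjusted p = 0.251), Itih5 (-0.47, adjusted p = 0.0968), Tlr2 (-0.082, adjusted p = 0.858) and Itih1 (-0.10, adjusted p = 0.809) were not called, and the signs of Tlr2 and Itih1 turned with median scaling (0.024 and 0.0015).

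**Figure D4:**
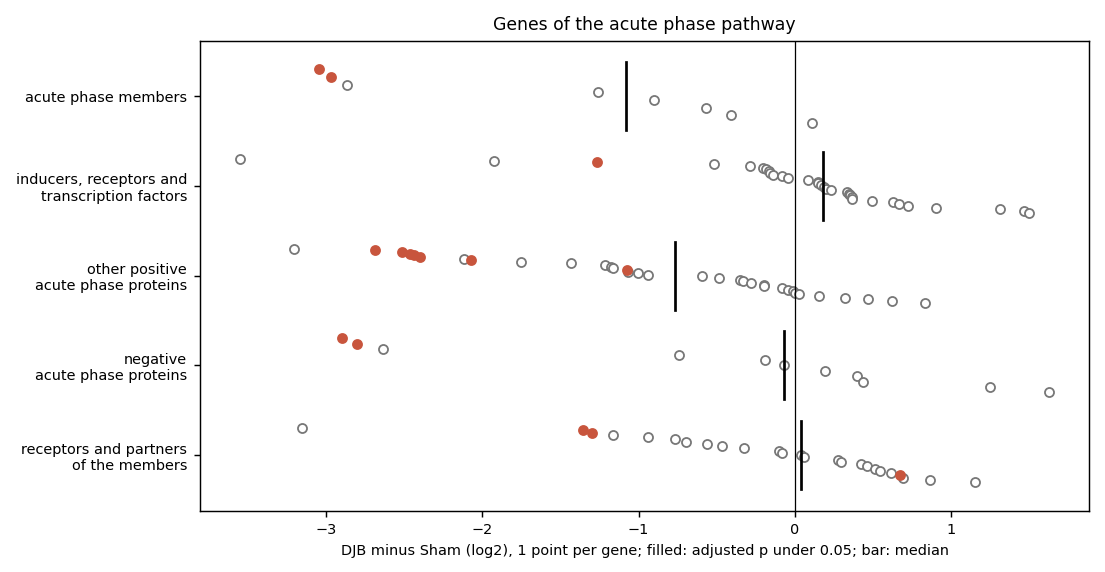
Difference DJB minus Sham (log2) of each tested gene of the acute phase lists, 1 point per gene by its brightest probe, with the list median as a bar and filled points for a limma adjusted p under 0.05. The medians are -1.08 for the members, 0.18 for the inducers, -0.77 for the other positive and -0.073 for the negative acute phase proteins, and 0.040 for the receptors and partners.

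The calls of these genes varied with the arrays used. Of the 13 genes called in these lists beside the members, leaving out Sham-1 kept 4, Sham-2 kept 6 and Sham-3 kept 10, whereas leaving out DJB-1 kept 6, DJB-2 kept 3 and DJB-3 kept 10, and 6 remained with slide as a block. Serpina1b, Serpina1c and Serpina1e kept their calls in each of the 6 fits. Serpina1d lost its call without DJB-2 (adjusted p = 0.0613), and Serpina1a without Sham-1 (0.0695) and without DJB-2 (0.0527). Rbp4 and Alb kept theirs in 3 of the 6 fits (adjusted p up to 0.106 and 0.0924), Hpx and Slc22a17 in 2 (up to 0.102 and 0.0896), Itih2 and Serpina3k in 1 (up to 0.159 and 0.166) and Tlr4 in none (0.0510 to 0.157). All were from limma, and none of these differences changed sign.

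Markers of several cell types differed between the groups. Of all 18333 genes, 6.09% were called lower and 1.41% higher, the shares to set beside the counts of each marker list. The 12 markers of mature adipocytes, the cells of the labelled tissue, were all well above background on all arrays, and 3 were called lower: Lep, leptin (-2.96, limma adjusted p = 0.0435, but -2.38 and not called without DJB-1), Retn, resistin (-1.20, adjusted p = 0.0348), and Pparg (-0.72, adjusted p = 0.0376). Each of these 3 kept its call in 1 of the 6 fits with an array left out. The limma adjusted p reached 0.151 for Lep, 0.133 for Retn and 0.142 for Pparg. Of the 12, 11 had a negative difference, and for 9 every DJB array lay below every Sham array, against 14.2% of all tested probes. The median of the 12 was -1.09, beside -1.08 for the members and 0.0039 for all genes. Fabp4, the brightest of the 12, had the 1 positive difference, 0.078 (limma adjusted p = 0.790), with its sign turned to -0.12 by quantile normalization. Of 14 tested hepatocyte markers of 16, 3 were called lower, Serpina1a, Alb and Serpina3k. Their summed signal was 91.1 to 188.9 in Sham, against 23.5 to 65.3 in DJB, 12 of the 14 were well above background on every array, and 10 of the 16 are also in the acute phase lists. Fga and F2 were too dim to be tested. Of the 14, 5 had a positive difference without being called: Apoa1 (1.62), Ahsg (1.25), Ttr (0.44), Cps1 (0.14) and Tat (0.039). Cyp2e1, which adipocytes also express, was the brightest and so weighs most in the sum. It read 7.10, 5.83 and 7.17 on Sham and 3.47, 5.10 and 3.62 on DJB arrays and was not called (-2.63, adjusted p = 0.0513).

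Of 10 tested mesothelial markers, 2 were called lower and 0 higher, Krt19 (-2.51, limma adjusted p = 0.0294) and Rspo1 (-1.77, adjusted p = 0.0371). Their summed signal was 187.6 to 257.7 in Sham, against 40.5 to 104.7 in DJB. Of 14 macrophage markers, 3 were called higher and 0 lower: Mmp12 (1.63, adjusted p = 0.0261), Gpnmb (1.06, adjusted p = 0.0282) and Itgam (1.23, adjusted p = 0.0306). Positive differences were found for 13 of the 14, and the 1 negative was that of Cd163 (-0.56). Lyz2, the brightest of the list, differed by 0.52 (limma adjusted p = 0.0554), and the summed signal was 2780 to 3674 in Sham, against 4399 to 4911 in DJB.

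Neutrophil markers, of interest since neutrophils carry lipocalin 2, were 58.3 to 61.7 in summed signal in Sham, against 63.2 to 120.3 in DJB. The sum on DJB-1 (63.2) was close to that on Sham-2 (61.7). Called higher were S100a9 (2.86, limma adjusted p = 0.0339) and Stfa2l1 (3.15, adjusted p = 0.0353). Stfa2l1 was above background on 1 of 3 Sham arrays, so it was tested only through the group where it was high, and its difference was 0.64 with normexp background correction. It was not called with no filter on dim probes (adjusted p = 0.0718). The other 12 of the 14 were not called and 3 of them had a negative difference: S100a8 (-0.26), the partner of S100a9, Elane (-0.31) and Ltf (-0.014). Ly6g, the brightest, differed by 0.18 (adjusted p = 0.429). Of the 13 marker genes called, leaving out Sham-1 kept 0, Sham-2 kept 2 and Sham-3 kept 6, whereas leaving out DJB-1 kept 1, DJB-2 kept 0 and DJB-3 kept 12. The part of liver, mesothelial, macrophage or neutrophil RNA in the member values was not tested.

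**Figure D5:**
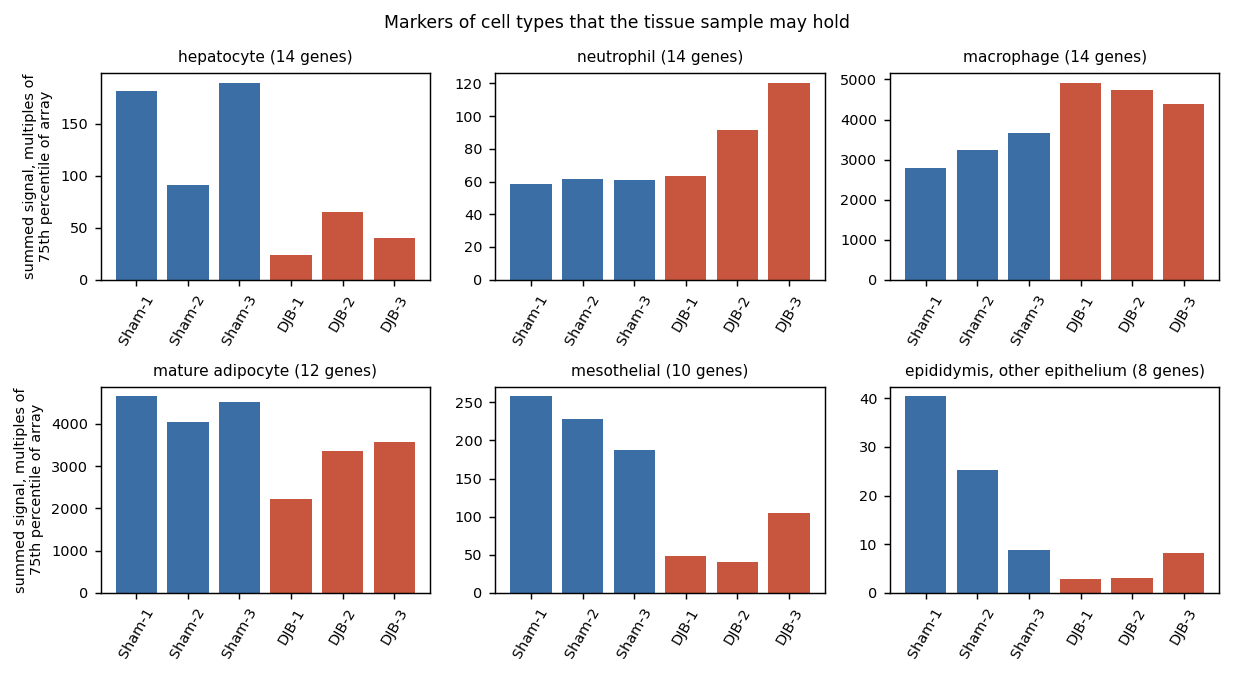
Summed signal, in multiples of the array's 75th percentile, of the tested markers of 6 cell types on each array (Sham blue, DJB red), each gene by its brightest probe. Hepatocyte, mature adipocyte and mesothelial sums are lower on all DJB arrays, macrophage and neutrophil sums are higher on all DJB arrays, and the epididymis and other epithelium sums are high on Sham-1 and Sham-2. The axes differ between panels.

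The promoters of the members were read for motifs of the factors that drive the acute phase. A promoter was listed for 6 of the 8 members (Orm2, Lcn2, Saa1, Saa2, Saa3 and Itih4), and the 250 bases before the RefSeq start in GRCm38.p6 were searched on both strands. The C/EBP motif TTGCNNAA was found in 5 of the 6 and in 9.57% of all 32536 promoters of the table. Counted from the start, it began at -120 in Orm2, -216 in Lcn2, -182 in Saa1, -183 in Saa2 and -99 in Saa3. The promoters of Saa1 and Saa2 are nearly the same in sequence, so the 5 matches are not separate. The STAT motif TTCNNNGAA was found in Itih4 alone, at -51, and in 7.04% of all promoters. The kappa-B motif, in 7.28% of all promoters, and the glucocorticoid response element, in 0.390%, were found in 0 of the 6. A match is a string of letters and no site of binding was measured. The motif was held by genes with a called fall (Orm2) and by genes without one (Saa1, Saa2, Saa3 and Lcn2). The 3 promoters shown are those of Orm2, which had a called fall, and of Lcn2 and Saa3, whose lower signals were not called, and capitals mark the C/EBP match.
Orm2, chr4:63362199-63362448, plus strand: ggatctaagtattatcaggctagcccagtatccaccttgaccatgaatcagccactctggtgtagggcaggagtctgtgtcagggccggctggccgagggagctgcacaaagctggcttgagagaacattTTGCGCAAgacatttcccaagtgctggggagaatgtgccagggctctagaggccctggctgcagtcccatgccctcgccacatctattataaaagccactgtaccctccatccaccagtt
Lcn2, chr2:32387740-32387989, minus strand: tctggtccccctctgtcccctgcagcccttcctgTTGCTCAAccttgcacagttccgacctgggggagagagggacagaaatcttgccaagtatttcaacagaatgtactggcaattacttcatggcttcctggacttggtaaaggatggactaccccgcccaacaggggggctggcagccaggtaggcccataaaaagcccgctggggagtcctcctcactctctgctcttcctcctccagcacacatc
Saa3, chr7:46715677-46715926, minus strand: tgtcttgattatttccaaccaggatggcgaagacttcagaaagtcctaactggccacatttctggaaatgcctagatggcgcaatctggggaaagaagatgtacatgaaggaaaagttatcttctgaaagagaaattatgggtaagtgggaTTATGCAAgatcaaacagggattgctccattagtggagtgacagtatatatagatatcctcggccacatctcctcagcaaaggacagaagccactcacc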

How the data were processed

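RNA of abdominal adipose tissue was read on 6 one-colour Agilent arrays. Per the file headers, the arrays were quantified with Feature Extraction 12.0.3.1, with mm9 in the genome build field. The deposited scanner files hold a processed intensity per spot, background-subtracted by that software, beside mean and background intensity and flags. A second deposited table gives the authors' normalized log2 values, and each of its columns correlated with its own array at r of at least 0.99934. Per the submitters' processing notes, limma was used, with no version or role given.

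The log2 of the processed intensity minus each array's 75th percentile over 150305 non-control probes was used. Outlier spots (18 to 25 per array) were set to missing. Probes were tested where 3 or more of the 6 arrays had them well above background. R 4.3.3 with limma 3.58.1 (lmFit, eBayes; two-sided; without covariates; 2.26 prior degrees of freedom) compared DJB with Sham, after a check on simulated data. A gene was represented by its tested probe of highest mean signal. Python 3.11.15 with pandas 2.3.3 made the tables. Sequences came from the deposited files and, for promoters, from RefSeq (GRCm38.p6).

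Named genes were every probe of the members; up to 6 called genes of each acute phase list and 23 fixed ones; up to 4 called genes and the brightest of each marker list; and the 3 genes most correlated with each member. The members and lists were chosen with earlier results of these data known. The alternatives were other background corrections, scalings, filters and variance priors, the authors' values, blocks for slide and replicate number, mean of probes, and each array left out. The series' design text describes another experiment and was not used.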

Additional observations from a re-analysis of the deposited data

How the results depend on the processing

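Over 15 alternative settings and the mean of probes, 74 values of single probes and genes gave 1160 comparisons: 929 kept direction and side of the threshold, 177 kept direction but lost the call, 27 gained one and 27 turned sign. Each member counts by its probes and again as a gene by its brightest probe, so the 74 are not separate values. The 929 include values that were not called and stayed so. Over all tested probes, 3137 lower and 1830 higher calls became 2026 and 1906 with median scaling, 576 and 73 without a filter, 4897 and 6998 with normexp, 5328 and 5286 with a trended robust prior, 619 and 88 with slide as a block and 4064 and 3485 with the filter on all 6 arrays. They were 118 to 3181 and 1 to 790 with an array left out. The median difference of all tested probes was 0.080, and 0.19 with median scaling.

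The 2 named probes called lower became 1 with slide as a block and 0 to 2 with an array left out (0 without Sham-1, Sham-2 or DJB-2), and 3 with normexp. The 2 custom probes became 0 to 3 with an array left out. No named probe was called higher in any setting run. Listed acute phase genes beside the members, 12 lower and 1 higher, became 22 and 6 with normexp, 6 and 0 with slide as a block, and 3 to 14 and 0 to 1 with an array left out. The 1 higher call became 2 with median scaling, 0 without a filter, 7 with the trended prior, 2 with the filter on all 6 arrays and 4 with the mean of probes. The marker genes, 8 lower and 5 higher, became 17 and 8 with normexp, 1 and 0 without a filter, 2 and 1 with slide as a block, and 0 to 15 and 0 to 5 with an array left out. Their higher calls became 11 with the trended prior and 8 with the mean of probes.

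With the replicate number as a block, 0 probes were called in any of these counts, members included. Deviations of same-numbered arrays correlated at -0.18, -0.12 and -0.29, and no Sham array was closest to its own number. With 3 arrays per group these values cannot settle whether same-numbered arrays belong together, and the labels do not say what the number stands for.

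Signs turned as follows. With normexp, Saa1 (A_51_P361650) became 0.037, Saa2 0.024, Saa4 0.078 and 0.019 on its 2 tested probes, and Itih1 0.082. With median scaling C3 became 0.023, Tlr2 0.024 and Itih1 0.0015. With the mean of probes Tlr2 became 0.0016, Itih1 0.11 and Fabp4 -0.12. Fabp4 became -0.12 with quantile normalization and -0.13 with the authors' values. With an array left out, the ranges that crossed 0 were -0.77 to 0.19 for the Saa2 named probe, -1.20 to 0.17 and -1.28 to 0.071 for the custom probes of Saa1 and Saa2, -0.59 to 0.093 for Tnf, -0.53 to 0.028 for Nfkbiz, -0.17 to 0.048 for C3, -0.28 to 0.16 for Tlr2, -0.26 to 0.15 for Itih1 and -0.015 to 0.25 for Fabp4. The cause of these changes was not tested.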
